A study of Mus musculus with 2 samples.

Results

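The 10 genes described here encode the machinery by which a cell shows fragments of its own proteins at its surface on MHC class I molecules: H2-K1, H2-D1, B2m, Tap1, Tap2, Tapbp, Psmb8, Psmb9, Psmb10 and Nlrc5. They were chosen by name from the 22711 genes of the deposited tables, and all 10 are listed there. The expression data come from immortal mouse embryonic fibroblasts (MEF), cultured cells that carry 1 genome each of the strains C57BL/6N (B6) and PWK/PhJ (PWK). In the line PWK-Xi, whose strain label is C57BL/6N X PWK/PhJ, the inactive X chromosome is the PWK copy. In the line B6-Xi, whose strain label is PWK/PhJ X C57BL/6N, it is the B6 copy. Both lines are immortal and no treatment is given for either. Each line has 1 library, so no difference between them has a replicate check, no test could be made, and what is particular to a line cannot be told apart from what is particular to its inactive X or to its library.

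Proteins of the cytosol are cut by the proteasome. Some of its standard catalytic subunits can be replaced by the immunoproteasome subunits encoded by Psmb8, Psmb9 and Psmb10, which favours peptides that fit class I molecules. The Tap1 and Tap2 proteins form the transporter that carries these peptides into the endoplasmic reticulum, where tapasin, the product of Tapbp, holds the empty class I molecule beside the transporter. H2-K1 and H2-D1 encode the heavy chains of the classical class I molecules, which need the light chain encoded by B2m to reach the surface, and Nlrc5 encodes a transcriptional activator of class I genes. Interferon raises the transcription of most of these genes, and fibroblasts express them at a modest level without it.

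The more abundant of the 10 genes were lower in PWK-Xi than in B6-Xi. Summed over the 10 genes, there were 48.9 FPKM in PWK-Xi and 193.5 FPKM in B6-Xi, FPKM being fragments scaled to transcript length and to the mapped fragments of the library, with both alleles added. A difference was taken as log2((PWK-Xi + 1)/(B6-Xi + 1)), and a gene was compared where it reached 5 FPKM in 1 line or both. Of the 10 genes, 5 reached that minimum, namely H2-D1, H2-K1, Tapbp, Psmb10 and Psmb8, and all 5 were at least 2-fold lower in PWK-Xi, against 5.83% of the 5490 genes compared. Psmb8 reached the minimum through B6-Xi only and so had to be lower. The other 4 had at least 5 FPKM in both lines. Of the 3960 genes with that level, 4.19% were at least 2-fold lower and 7.98% at least 2-fold higher. None of the 5 was at least 2-fold higher, while 17.8% of the 5490 genes were. At 4-fold, Tapbp and Psmb8 were left, against 1.33% of all genes. The median log2 difference of the 5241 compared genes above 0 in both lines was 0.19, so every log2 difference from here on has that shift taken off, and folds are plain ratios of FPKM. Calls by fold were made without that shift. The median over the 5 genes was -2.04. Since these genes had been seen to differ in earlier results of these data, the counts describe the set and single it out from nothing.

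**Figure D1:**
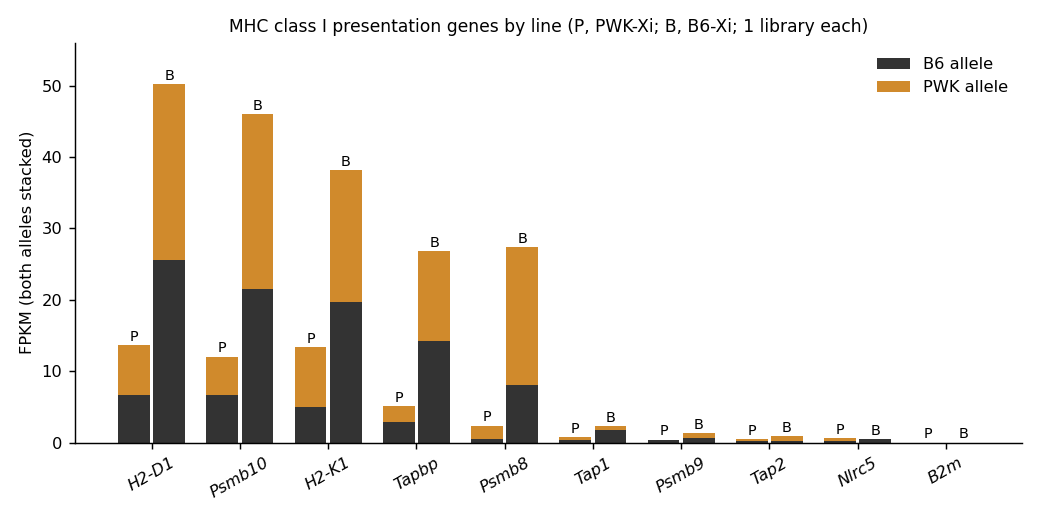
FPKM of the 10 genes (vertical axis, linear from 0) with the PWK-Xi library (P) left of the B6-Xi library (B), and the B6 allele (dark) stacked under the PWK allele (orange). The PWK-Xi bar is the shorter one for the 5 genes at the left, which reach 50.2 FPKM in B6-Xi (H2-D1) and at most 13.6 FPKM in PWK-Xi; the other 5 lie at 2.36 FPKM or less in both lines.

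H2-D1 was the most abundant of the genes in both lines. In PWK-Xi it was followed by H2-K1, Psmb10, Tapbp and Psmb8, and in B6-Xi by Psmb10, H2-K1, Psmb8 and Tapbp, an order with no replicate spread behind it. H2-D1 had 13.6 FPKM in PWK-Xi, made up of 6.67 FPKM from the B6 allele and 6.95 FPKM from the PWK allele, against 50.2 FPKM in B6-Xi, made up of 25.5 and 24.6 FPKM. It was 3.68-fold lower in PWK-Xi (log2 difference -2.002). H2-K1 had 13.4 FPKM in PWK-Xi, with 5.03 FPKM from B6 and 8.37 FPKM from PWK, against 38.1 FPKM in B6-Xi, with 19.7 and 18.4 FPKM. It was 2.84-fold lower (log2 difference -1.64), the smallest difference of the 5. The ratio of H2-D1 to H2-K1 was 1.02 in PWK-Xi and 1.32 in B6-Xi, so both heavy chains were present at similar levels within each line. Together they had 27.0 FPKM in PWK-Xi and 88.3 FPKM in B6-Xi. B2m, the light chain gene, is listed at 0 for both alleles in both lines. Class I heavy chains and B2m are normally expressed together, and in these files 9578 genes (42.2%) are at 0 in both lines, among them the fibroblast gene Vim, so the 0 of B2m says only how it is listed.

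The promoters of the 2 heavy chain genes are shown because both genes were lower together and because they carry well-known control elements of class I transcription. The sequences are RefSeq windows of build GRCm38.p6 from 250 bases before to 50 bases after the transcription start, from the B6 reference, and 8 of the 10 genes have such a window (Tap2 and Nlrc5 have none in the table used). H2-K1 lies on the minus strand at chr17:34000298-34000597, the first of its 2 listed windows, and H2-D1 on the plus strand at chr17:35262844-35263143. Capitals mark matches, on either strand, to GGGATTCCC (the NF-kB element of the class I enhancer), GTTTCACTT (an interferon response element), TGACG (the core of a CREB-type element) and ATTGG (the inverted CCAAT box), none of which overlap one another here. These letters were chosen after the promoters had been read.
H2-K1: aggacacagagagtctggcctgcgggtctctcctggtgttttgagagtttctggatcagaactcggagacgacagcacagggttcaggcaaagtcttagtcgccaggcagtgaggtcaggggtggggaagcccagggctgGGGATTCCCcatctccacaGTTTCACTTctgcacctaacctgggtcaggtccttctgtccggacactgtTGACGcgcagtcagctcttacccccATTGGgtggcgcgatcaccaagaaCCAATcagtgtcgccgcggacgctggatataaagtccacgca
H2-D1: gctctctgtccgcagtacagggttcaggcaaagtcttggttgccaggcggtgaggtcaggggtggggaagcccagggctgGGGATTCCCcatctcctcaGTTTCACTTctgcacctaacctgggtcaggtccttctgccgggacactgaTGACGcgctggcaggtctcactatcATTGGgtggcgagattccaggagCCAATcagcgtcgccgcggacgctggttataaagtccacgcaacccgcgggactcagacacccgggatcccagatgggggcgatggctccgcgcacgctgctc
The order of the elements is the same in both. From GGGATTCCC, whose first base lies at -110 in H2-K1 and -170 in H2-D1 relative to the start, to ATTGG at -16 and -76, all 4 motifs keep the same spacing. The second match to ATTGG, on the other strand, begins at 9 in H2-K1 and -53 in H2-D1. Aligned locally, the windows were identical at 206 of 227 bases (90.7%). Among 32851 windows of the same length over all genes, GGGATTCCC occurred in 116 (0.353%), GTTTCACTT in 0.399%, TGACG in 20.8% and ATTGG in 37.4%, and 4 windows held all 4 motifs: both of H2-K1, that of H2-D1 and 1 of H2-Q7, another class I gene. The window of B2m held TGACG and ATTGG. A match of letters is a description and not a bound site.

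Tapbp and Psmb8 had the larger differences. Tapbp had 5.13 FPKM in PWK-Xi (2.91 FPKM from B6 and 2.22 FPKM from PWK) and 26.8 FPKM in B6-Xi (14.2 and 12.7 FPKM). It was 5.23-fold lower in PWK-Xi (log2 difference -2.38). Psmb8, which encodes the immunoproteasome subunit of the chymotrypsin-like site, had 2.37 FPKM in PWK-Xi (0.565 FPKM from B6 and 1.81 FPKM from PWK) and 27.3 FPKM in B6-Xi (8.04 and 19.3 FPKM). Its log2 difference of -3.27 was the largest of the set and ranked 21 from the lowest among the 5490 genes. The ranks of Tapbp, Psmb10, H2-D1 and H2-K1 were 64, 83, 90 and 145. Exons of Tapbp are overlapped by an antisense gene over 24.9% of their bases and those of Psmb8 over 14.7% in the GENCODE annotation, and since no label says that the libraries kept strand, reads of these antisense genes could not be told apart from those of Tapbp and Psmb8. Tapbp also shares 4.11% of its exon bases with Zbtb22 on the same strand, Tap2 shares 14.1% and 4.36% with antisense genes, and Psmb9 and Tap1 overlap each other over 5.79% and 3.87% of their exon bases.

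**Figure D2:**
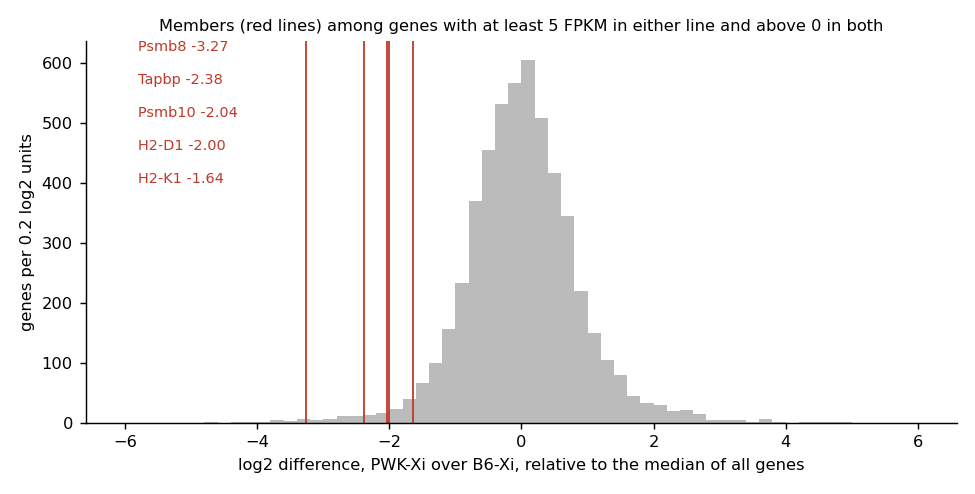
Number of genes (vertical axis) by log2 difference of PWK-Xi over B6-Xi relative to the median of all genes (horizontal axis), for the 5241 genes above 0 in both lines that reach 5 FPKM in 1 of them. Red lines mark the 5 compared class I genes, all in the lower tail between -3.27 (Psmb8) and -1.64 (H2-K1).

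The promoters of Psmb8 and Tapbp are shown for contrast with the heavy chain pair, since both genes were lower in PWK-Xi and neither window holds GGGATTCCC or GTTTCACTT. Psmb8 lies on the plus strand at chr17:34197945-34198244 and Tapbp on the plus strand at chr17:33919228-33919527. Capitals mark ATTGG in Tapbp and, in Psmb8, TTCNNNGAA, a palindromic pattern, which occur in 8.30% of all windows.
Psmb8: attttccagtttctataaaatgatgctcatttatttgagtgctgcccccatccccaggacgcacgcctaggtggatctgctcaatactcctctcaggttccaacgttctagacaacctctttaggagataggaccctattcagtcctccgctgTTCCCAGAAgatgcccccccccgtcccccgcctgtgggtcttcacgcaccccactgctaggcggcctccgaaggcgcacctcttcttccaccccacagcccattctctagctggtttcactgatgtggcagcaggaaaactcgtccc
Tapbp: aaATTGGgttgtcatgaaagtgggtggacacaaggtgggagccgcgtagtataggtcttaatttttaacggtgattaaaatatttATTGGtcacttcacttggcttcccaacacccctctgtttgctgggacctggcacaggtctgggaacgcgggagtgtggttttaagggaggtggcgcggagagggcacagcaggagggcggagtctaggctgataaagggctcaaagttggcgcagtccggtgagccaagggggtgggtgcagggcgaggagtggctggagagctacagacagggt
Psmb10 had a window with none of the 5 motifs. Psmb9 and Tap1 are read in opposite directions from neighbouring starts, and their windows overlap by 275 bases. In that shared stretch, the TGACG that begins at -86 from the start of Tap1 is also, on its other strand, the 1 in the window of Psmb9. These absences and matches hold for these letters in these windows.

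The immunoproteasome subunits were compared with the standard subunits that they replace. Psmb10, the subunit of the trypsin-like site, had 12.05 FPKM in PWK-Xi (6.69 FPKM from B6 and 5.36 FPKM from PWK) and 46.0 FPKM in B6-Xi (21.5 and 24.5 FPKM), 3.82-fold lower in PWK-Xi (log2 difference -2.04). Psmb9, the subunit of the caspase-like site, stayed under the minimum with 0.441 FPKM in PWK-Xi and 1.32 FPKM in B6-Xi. The standard counterparts were within 2-fold: Psmb5, which Psmb8 replaces, had 187.3 and 255.5 FPKM in PWK-Xi and B6-Xi. Psmb6, which Psmb9 replaces, had 278.6 FPKM in PWK-Xi and 317.3 FPKM in B6-Xi, and Psmb7, which Psmb10 replaces, had 132.2 FPKM in PWK-Xi and 81.7 FPKM in B6-Xi. Their log2 differences were -0.64, -0.38 and 0.49. Of the FPKM of each pair, the immunoproteasome gene made up 8.36% in PWK-Xi and 36.03% in B6-Xi for Psmb10, and 1.25% and 9.67% for Psmb8. For Psmb9, under the minimum, the values were 0.158% and 0.413%. Summed over the 3 pairs, the share was 2.42% in PWK-Xi and 10.2% in B6-Xi. The standard subunits thus exceeded the immunoproteasome subunits in both lines, by 40.2-fold in PWK-Xi and 8.77-fold in B6-Xi.

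**Figure D3:**
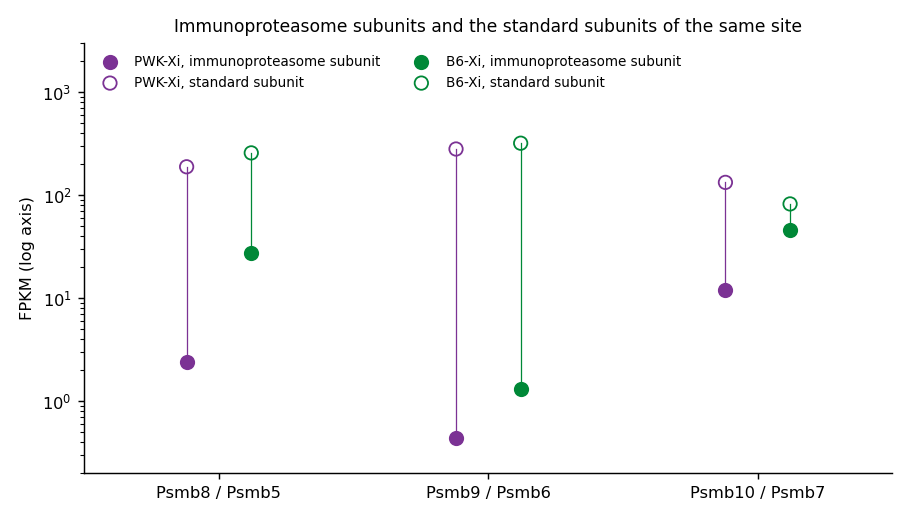
FPKM on a log axis of each immunoproteasome gene (filled) and the standard gene of the same catalytic site (open), with PWK-Xi (purple) left of B6-Xi (green). The distance within a pair is wider in PWK-Xi for Psmb8 and Psmb10, and narrowest for Psmb10 and Psmb7 in B6-Xi, at 46.0 and 81.7 FPKM; Psmb9 lies under the minimum for comparison in both lines.

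The transporter genes and Nlrc5 were too low for the comparison. Tap1 had 0.771 FPKM in PWK-Xi and 2.36 FPKM in B6-Xi, Tap2 had 0.504 FPKM in PWK-Xi and 0.897 FPKM in B6-Xi, and Nlrc5 had 0.608 FPKM in PWK-Xi and 0.469 FPKM in B6-Xi. Nlrc5 was the only one of the 9 genes above 0 whose total was higher in PWK-Xi. The peptide transporter genes therefore lay below the heavy chains and tapasin in both lines on this scale per length. At these levels the differences are given as values only.

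Each allele of the 5 genes was lower in PWK-Xi. Where the shares of a gene are near even in both lines, this follows from its lower sum. It then restates the difference and adds no support. From the B6 copy, the 5 genes were between 3.21-fold (Psmb10) and 14.2-fold (Psmb8) lower in PWK-Xi, and from the PWK copy between 2.2-fold (H2-K1) and 10.7-fold (Psmb8) lower. In PWK-Xi each allele of Tapbp and Psmb8 was under 5 FPKM, so their folds rest on low values. Of the 3 genes with at least 5 FPKM of an allele in both lines, H2-K1, H2-D1 and Psmb10, all 3 were at least 2-fold lower for the B6 allele and all 3 for the PWK allele, against 4.8% and 9.75% of all genes that reached 5 FPKM of that allele in both lines.

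Allelic shares were close to even for most of the expressed genes. The B6 share is the B6 FPKM over the sum of both alleles. H2-D1 had 48.9% in PWK-Xi and 50.9% in B6-Xi, Tapbp 56.8% and 52.8%, and Psmb10 55.6% and 46.7%. H2-K1 had 37.5% in PWK-Xi against 51.7% in B6-Xi, a difference of -14.1 percentage points. Psmb8 leaned to PWK in both lines, with 23.8% in PWK-Xi and 29.4% in B6-Xi. The PWK value of Psmb8 was thus the higher one in both libraries. It was 1.81 FPKM against 0.565 FPKM for B6 in PWK-Xi, both low values, and 19.3 against 8.04 FPKM in B6-Xi. The part of the overlapping antisense gene in these shares was not tested. The median over the 5 genes was 48.9% in PWK-Xi and 50.9% in B6-Xi. Over 7434 autosomal genes at 1 FPKM or more in each line, the medians were 52.7% in PWK-Xi and 50.0% in B6-Xi, with quartiles of 45.03% and 60.9% in PWK-Xi and of 37.2% and 62.5% in B6-Xi. Psmb8 lay below the lower quartile in both lines and H2-K1 below that of PWK-Xi.

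Genes under 5 FPKM had shares that moved in coarse steps, mainly in B6-Xi. Tap1 had 57.6% in PWK-Xi and 75% in B6-Xi, Psmb9 had 80.0% and 50.0%, Tap2 had 38.2% and 20%, and Nlrc5 had 42.3% and 100%. The B6-Xi values of all 4 equal simple fractions with a denominator of at most 10 within 0.001 percentage points, as do 12.8% of all genes at 1 FPKM or more in PWK-Xi and 47.1% in B6-Xi. In PWK-Xi, Psmb9 alone of the 4 had such a share. Psmb10 also had one in that line, 55.6% at 12.05 FPKM. Such shares were more common in B6-Xi, the line where the 5 compared genes were higher. Coarse steps were thus not confined to genes under 5 FPKM. Psmb8, with 2.37 FPKM in PWK-Xi, was itself under 5 FPKM in that line. The shares of the 5 compared genes may also rest on few fragments. Read depth is unknown, no counting interval can be given, and no difference between the lines is read from these 4 genes.

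**Figure D4:**
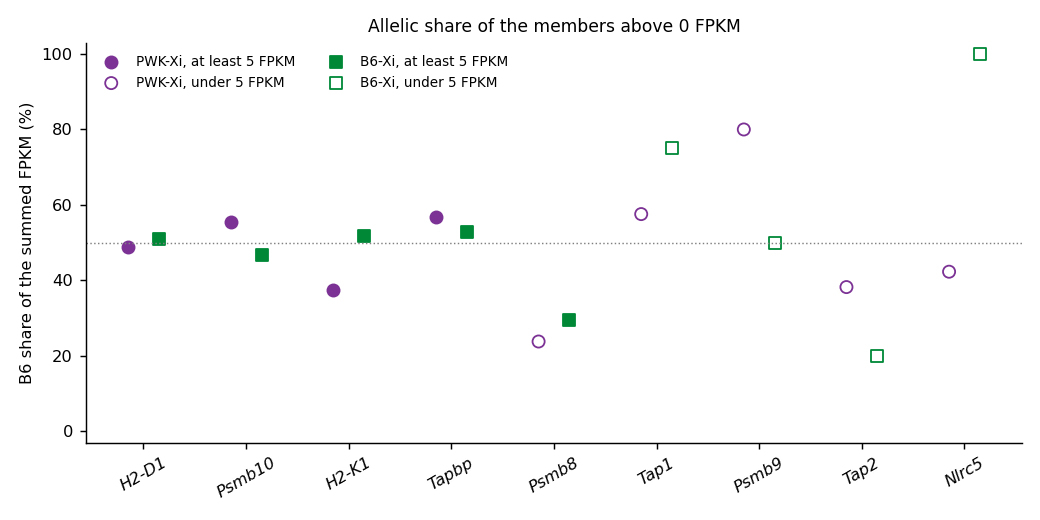
B6 share of the summed FPKM in percent (vertical axis) for the 9 genes above 0, with PWK-Xi (purple circles) left of B6-Xi (green squares), filled at 5 FPKM or more and open below. H2-D1, Psmb10 and Tapbp lie near 50% in both lines, Psmb8 lies at 23.8% and 29.4%, and the open symbols at the right scatter between 20% and 100%.

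MHC sequences differ widely between mouse strains, and class I genes also resemble one another within a strain. The way reads were given to 1 strain or the other is not described in the labels, and the part of strain divergence in these shares was not tested. Resemblance to other genes was measured in the B6 reference transcripts. Of the 50-base windows of the longest protein-coding H2-K1 transcript, 8.79% occur exactly in transcripts of other genes, 6.94% in those of H2-D1. For H2-D1 14.3% do, most often in H2-Q1 (7.40%) and H2-Q7 (5.99%). The levels of H2-K1 and H2-D1 are therefore uncertain, by an amount that was not measured. No window of B2m, Psmb8, Psmb9, Psmb10 or Nlrc5 occurs in another gene, so by this measure Psmb8 has no near-identical copy. For Tap1, Tap2 and Tapbp the shares were 0.861%, 0.737% and 2.00%.

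Of the genes, 7 lie on chromosome 17, and the neighbours within the MHC gave the local background. Between H2-K1 and H2-D1 in the gene order of RefSeq, 80 other genes are listed, 38 of them at 0 in both lines, and 20 had at least 1 FPKM in both. None of these 20 was 2-fold lower or higher, their median log2 difference was -0.40, and they ran from -0.81 (Stk19) to 0.54 (Ddah2). Of 7434 autosomal genes at that level, 311 were at least 2-fold lower and 748 at least 2-fold higher. Whether a count of 0 among 20 genes is unusual was not tested, and nothing is read from it. The most abundant were Clic1, a chloride channel family gene, with 104.1 FPKM in PWK-Xi and 120.1 FPKM in B6-Xi, the non-coding gene 1110038B12Rik with 60.5 and 75.9 FPKM, and the RNA helicase gene Ddx39b with 39.7 and 34.8 FPKM. At the minimum of 5 FPKM in either line, 15 of the 80 were compared, none was at least 2-fold lower, and 2 were higher, Ehmt2 (5.65 FPKM in PWK-Xi) and H2-Ke6 (6.96 FPKM in PWK-Xi), both listed at 0 in B6-Xi. Of all 5490 genes compared, 5.83% were lower and 17.8% higher. Beyond H2-K1, on the side of Tapbp, the nearest expressed genes had lower values: Vps52 had 6.33 FPKM in PWK-Xi and 13.6 FPKM in B6-Xi (-1.19), and Rps18, a ribosomal protein gene, had 1150 FPKM in PWK-Xi and 2292 FPKM in B6-Xi (-1.19); both were picked out once their values were known. Each remained above the class I genes in log2 difference.

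**Figure D5:**
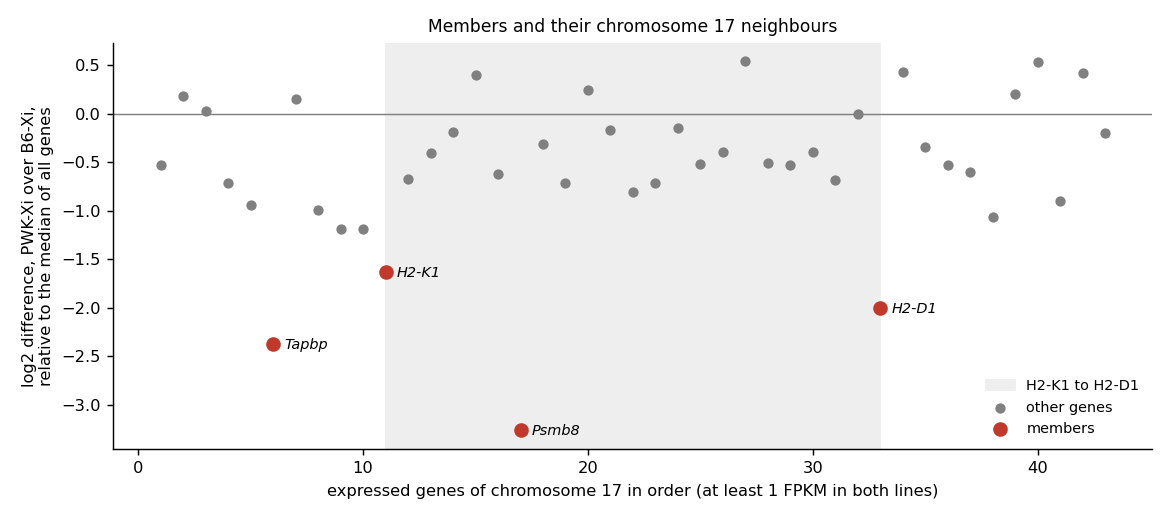
Log2 difference of PWK-Xi over B6-Xi relative to the median of all genes (vertical axis) for consecutive chromosome 17 genes at 1 FPKM or more in each line (horizontal axis, gene order without scale), with class I genes in red and the stretch from H2-K1 to H2-D1 shaded. The 4 red points lie between -3.27 and -1.64, under all grey points shown, whose lowest value is -1.19. The stretch shown is only a part of chromosome 17. Of 364 other genes of the whole chromosome at that level, 12 were at least 2-fold lower. The lowest of them had -2.39 without the shift taken off, where Tapbp had -2.18.

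The shares of the same neighbours gave the allelic background. The 20 genes had a median B6 share of 60.8% in PWK-Xi and 48.6% in B6-Xi, and the 4 class I genes of chromosome 17 at that level had 43.2% and 51.3%. Chromosome 17 without the class I genes had 53.6% and 52.9% over 364 genes. Bag6, a chaperone gene of the MHC class III region, is listed wholly under B6 in both lines (10.1 FPKM in PWK-Xi and 14.6 FPKM in B6-Xi). How reads were given to a strain is not described, so this says only how Bag6 is listed. Rnf5, a ubiquitin ligase gene, had 67.4% of 12.5 FPKM from B6 in PWK-Xi and 0% of 18.4 FPKM in B6-Xi. The shares of Bag6 in both lines, and of Rnf5, stood further from 50% than those of H2-D1, H2-K1 and Tapbp. Bag6 and Rnf5 were named because of an extreme share, so such a distance follows from the choice and nothing is read from it. Psmb8, with 23.8% in PWK-Xi, stood further from 50% than Rnf5 did in that line. For Psmb10, which lies on chromosome 8, the medians of the other genes of that chromosome were 54.1% in PWK-Xi and 50.0% in B6-Xi, and their median log2 difference was -0.18.

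The other pathway genes that reached the minimum were mostly within 2-fold. Of 22 further class I genes listed (the Q, T and M genes and others), 15 are at 0 in both lines and none reached 5 FPKM. Of the 5 partners in peptide loading, 3 were compared. Calr, the chaperone calreticulin, had 183.6 FPKM in PWK-Xi and 202.9 FPKM in B6-Xi (-0.34), and Canx, calnexin, had 76.6 and 75.3 FPKM (-0.17). Pdia3, the disulphide isomerase of the loading complex, was higher in PWK-Xi, with 137.3 FPKM against 57.9 FPKM in B6-Xi (1.04). Of the proteasome activator and assembly genes, Psme1 and Psme2 are listed at 0 in both lines, the activator gene Psme3 had 13.2 FPKM in PWK-Xi and 20.5 FPKM in B6-Xi, and the assembly gene Pomp had 273.2 and 250.1 FPKM.

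Regulators of class I transcription were mixed. Of 19 listed, 11 were compared, 1 was at least 2-fold lower in PWK-Xi (Irf1) and 1 at least 2-fold higher (Ifnar2). Over the 5490 genes compared, 5.83% were lower and 17.8% higher, so these counts single out no regulator. Irf1 reached the minimum through B6-Xi only and so had to be lower. Of the 6 regulators with 5 FPKM or more in each line, 0 were, against 4.19% of all such genes. Irf1, an interferon-induced activator of class I genes, had 3.39 FPKM in PWK-Xi, 59.5% from B6, and 8.99 FPKM in B6-Xi, 50.0% from B6 (log2 difference -1.38). It lies on chromosome 11, whose genes had a median log2 difference of -0.40, and the part of that chromosome-wide shift in its value was not tested. Among receptor genes, Ifnar2 had 13.3 FPKM in PWK-Xi and 5.95 FPKM in B6-Xi (0.85, under 2-fold once the shift is taken off), Ifngr1 had 10.1 and 7.32 FPKM (0.22), and Ifngr2 had 12.3 and 10.5 FPKM (0.02). Ifnar2 and Ifngr2 lie on chromosome 16, where the median log2 difference was 0.19. The kinase gene Jak1 had 27.0 FPKM in PWK-Xi and 27.2 FPKM in B6-Xi. The NF-kB subunit gene Rela had 11.5 FPKM in PWK-Xi and 16.5 FPKM in B6-Xi (-0.68), and Nfkb1 had 5.36 and 3.92 FPKM (0.18). The CCAAT-binding factor genes Nfyb and Nfyc (7.45 and 17.9 FPKM in PWK-Xi, 4.69 and 11.7 FPKM in B6-Xi) both had 0.38, and the interferon factor gene Irf2 had 5.13 FPKM in PWK-Xi and 3.42 FPKM in B6-Xi (0.28).

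Markers of other cells were listed at or near 0. Of 13 leukocyte markers listed, 9 are at 0 in both lines, and the list summed to 4.81 FPKM in PWK-Xi and 1.56 FPKM in B6-Xi, most of it from Cd68 (3.25 and 1.39 FPKM). Of all genes 42.2% are at 0 in both lines, the fibroblast gene Vim among them. Such a 0 says only how a gene is listed. Ptprc, the pan-leukocyte gene, had 0.0500 FPKM in PWK-Xi and is listed at 0 in B6-Xi. Endothelial markers summed to 0.205 FPKM in PWK-Xi and 0.0476 FPKM in B6-Xi, and epithelial ones to 1.03 and 0 FPKM. The fibroblast markers themselves differed between the lines: of 12 listed, 10 were compared, 2 were at least 2-fold lower in PWK-Xi (S100a4 and Col3a1) and 4 at least 2-fold higher (Dcn, Lum, Pdgfra and Pdgfrb). Of all 5490 genes compared, 5.83% were lower and 17.8% higher. Col3a1 reached the minimum through B6-Xi only and Lum through PWK-Xi only, so their directions were fixed. Pdgfrb was under 2-fold once the shift is taken off (0.81). Of the 8 markers with 5 FPKM or more in each line, 1 was lower and 3 higher, against 4.19% and 7.98% of all such genes. S100a4 had 2321 FPKM in PWK-Xi and 13006 FPKM in B6-Xi, and Dcn, a matrix proteoglycan gene, had 456.4 FPKM in PWK-Xi and 79.1 FPKM in B6-Xi. Lum had 7.20 FPKM in PWK-Xi and is listed at 0 in B6-Xi, and the collagen gene Col1a2 had 69.2 FPKM in PWK-Xi and 134.4 FPKM in B6-Xi. The part of such differences between the lines in the class I values was not tested. In bulk RNA fewer cells that express a gene and less RNA per cell cannot be told apart. The 10 most abundant genes of each library held 10.9% of the summed FPKM in PWK-Xi and 18.4% in B6-Xi, and 12907 and 10127 genes were above 0.

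The genes whose 4 allelic values came closest to those of the class I genes were found by Euclidean distance over log2(FPKM + 1) of both alleles in both lines. For H2-D1 these were Ahnak (11.8 FPKM in PWK-Xi and 44.4 FPKM in B6-Xi, distance 0.39), Psmb10 (0.40) and Pdlim1 (10.0 and 53.3 FPKM, distance 0.64). For Psmb10 they were H2-D1, Ahnak (0.43) and Pitpna (14.7 and 36.7 FPKM, distance 0.60). For H2-K1 they were 2310022B05Rik (13.9 and 31.3 FPKM, distance 0.39), Ahnak (0.43) and Tmem119 (11.9 and 41.2 FPKM, distance 0.52). H2-D1 and Psmb10, on different chromosomes, were thus each among the 3 nearest genes of the other. With 2 libraries such a likeness rests on 4 values.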

How the data were processed

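RNA of 2 fibroblast lines, 1 library each, was captured with oligo-dT and made into Smart-seq2 libraries, per the labels' protocols. The authors deposited FPKM values, 1 column per allele per the file headers. Per the submitters' processing notes, StringTie 2.1.1, HISAT2 2.2.0 and Trim Galore 0.6.4 were used with build mm9. The lines were taken from the titles.

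Alleles were summed, and shares used no pseudocount. Differences used a pseudocount of 1, which understates those of low genes. Calls needed 5 FPKM in either line and 2-fold, and shares 1 FPKM in both. There was no test. The 10 genes and all lists were chosen with earlier results of these data known; genes of the lists were named at 5 FPKM, MHC neighbours by level or a share of 90% or more or 10% or less, and others by likeness; 1 listed gene is not reported here. RefSeq matched 21414 genes by symbol and 1195 by synonym, 102 not; it is a later build than mm9, so no coordinates were joined to the files. Python 3.11.15, numpy 2.4.6, pandas 2.3.3, Biopython 1.88 and matplotlib 3.10.9 were used, and the calls were tested on simulated data. Alternatives changed the pseudocount, minimum, allele, centring and fold.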

Additional observations from a re-analysis of the deposited data

How the results depend on the processing

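The 5 class I genes compared were at least 2-fold lower in PWK-Xi with a pseudocount of 0.1, relative to the median of all genes, for either allele alone and after rescaling without the 10 most abundant genes. For each allele alone, Tapbp and Psmb8 reached 5 FPKM through B6-Xi only and so had to be lower. With a minimum of 1 FPKM 5 of 7 were at least 2-fold lower, and with no minimum 5 of 9. The share of all genes at these lower minimums was not computed. The same 5 genes were counted each time, so these settings add no separate support. At 4-fold 2 were left, against 1.33% of all genes, and with 5 FPKM required in both lines 4 of 4, against 4.19%. The count of higher genes was 0 in each. The median log2 difference of -2.04 was -2.13 with a pseudocount of 0.1, -1.98 with a minimum of 1 FPKM, -1.57 with none, -1.94 for the B6 allele, -2.02 for the PWK allele, -1.95 with 5 FPKM in both lines and -1.85 as deposited. The rescaling and the minimum in both lines were chosen after seeing the data. The median B6 share was 52.3% in PWK-Xi and 51.3% in B6-Xi with 5 FPKM in both lines, and 47.0% and 47.2% over summed FPKM. For the MHC neighbours these were 58.8% and 53.5%, and 58.4% and 50.7%; with no minimum they were 62.4% and 50.0%. No value changed sign. The read depth behind each value is unknown, and with 1 library per line none could be left out. No paired analysis was possible because each line has 1 library.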

Other observations

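Genes outside the classical class I pathway, named after their values were seen, gave further values. H2-T23, which encodes the non-classical class I molecule Qa-1, had 0.887 FPKM in PWK-Xi and 4.42 FPKM in B6-Xi, just under the minimum for comparison. Its B6 share was 16.7% in PWK-Xi and 18.2% in B6-Xi. Shares of genes under that minimum moved in coarse steps, so no lean to a strain is read from these H2-T23 values. H2-M3 had 1.09 FPKM in PWK-Xi and 1.37 FPKM in B6-Xi. Among class I-like genes elsewhere in the genome whose products bind the B2m light chain, Fcgrt, the neonatal Fc receptor gene, had 2.25 FPKM in PWK-Xi and 5.04 FPKM in B6-Xi (log2 difference -1.09), with B6 shares of 87.2% and 85.7%. Mr1, which presents vitamin metabolites, had 3.15 FPKM in PWK-Xi and 1.03 FPKM in B6-Xi. Cd1d1, a lipid-presenting gene, had 1.78 and 1.41 FPKM, all listed under B6. Erap1, the peptide-trimming enzyme gene, had 2.94 FPKM in PWK-Xi and 3.16 FPKM in B6-Xi.

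Class II presentation genes, normally active in professional antigen-presenting cells, were near 0. Of 10 listed, 4 are at 0 in both lines, including the class II activator gene Ciita, none reached 5 FPKM, and their sum was 3.05 FPKM in PWK-Xi and 3.95 FPKM in B6-Xi. Of all genes 42.2% are at 0 in both lines. H2-DMa, a class II peptide-loading gene, made most of it, with 2.02 FPKM in PWK-Xi and 3.07 FPKM in B6-Xi.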
